A study of Mus musculus with 463 samples.

Results

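Heart muscle genes were followed through bulk and single-cell RNA libraries of the mouse embryonic pancreas. The set holds 36 listed genes of the sarcomere, its anchors, calcium handling, the natriuretic peptides and the cardiac transcription factors, out of 40824 genes in the read-count tables. The genes were chosen by their higher read counts in the ventral than in the dorsal E10.5 bulk libraries, so that contrast is described here without a test. All 36 symbols were present in both the bulk and the single-cell table.

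The study compared ventral with dorsal pancreas development. The bulk part held 16 libraries in 8 groups of 2, each from a pool of sorted cells: Pdx1-GFP+ cells of the dorsal and ventral Pdx1-expressing regions at E10.5, Ngn3-GFP-low and Ngn3-GFP-high cells of each pancreas at E14.5, and Ins1-RFP+ cells of each pancreas at E17.5. The embryos carried the matching transgene (Pdx1-GFP for early progenitors, Ngn3-GFP for endocrine progenitors, Insulin-RFP for beta cells). The single-cell part held 447 cells in 12 sorts and 41 numbered sets, with Pdx1-GFP+ cells at E9.5 and E10.5, Pdx1-GFP-high and Pdx1-GFP-low cells at E10.5, ventral Pdx1-GFP-low cells split by the liver surface marker Liv2, Liv2+ liver bud cells, and 4 E15.5 liver cells traced by Pdx1-Cre and ROSA26-tdTomato. A sort on a reporter does not by itself select epithelium, and no label names the embryos or litters behind a library or set.

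Some of the 36 genes share their locus with a gene on the other strand, and the strand used in counting is not given in the sources used here. In the GENCODE annotation the span of 16 of the 36, introns included, overlaps such a gene. Part of their reads could therefore come from the partner, and how much is not known.

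In heart muscle, myosin thick filaments slide along actin thin filaments when calcium binds the troponin complex. Calcium is released through the ryanodine receptor and pumped back into the sarcoplasmic reticulum by the Atp2a2 pump, which phospholamban (Pln) restrains. Nkx2-5, Tbx5, Tbx20, Hand1 and Hand2 are transcription factors of the developing heart, and several also act in limb, gut or body wall mesoderm. The heart and the septum transversum lie beside the ventral foregut at these stages, whereas the dorsal bud lies away from them.

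The start-site regions of 4 genes are shown because, among genes with an entry, these rose furthest in CPM from dorsal to ventral and therefore carry most of the signal. Each is the RefSeq window of 250 bases before to 50 bases after the start (build GRCm38.p6), written 5' to 3' along the gene. Capitals mark matches to the CArG box (the serum response factor motif) or to TATAAA. The windows are Myh6 (minus strand, chr14:54966558-54966857), Actc1 (minus strand, chr2:114052826-114053125), Myl7 (minus strand, chr11:5898733-5899032) and Myl4 (plus strand, chr11:104550413-104550712).
Myh6: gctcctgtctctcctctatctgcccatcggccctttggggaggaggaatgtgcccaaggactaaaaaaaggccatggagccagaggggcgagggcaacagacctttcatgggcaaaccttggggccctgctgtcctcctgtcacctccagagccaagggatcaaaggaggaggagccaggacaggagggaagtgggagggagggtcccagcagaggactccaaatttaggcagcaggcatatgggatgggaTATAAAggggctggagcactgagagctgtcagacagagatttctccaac
Actc1: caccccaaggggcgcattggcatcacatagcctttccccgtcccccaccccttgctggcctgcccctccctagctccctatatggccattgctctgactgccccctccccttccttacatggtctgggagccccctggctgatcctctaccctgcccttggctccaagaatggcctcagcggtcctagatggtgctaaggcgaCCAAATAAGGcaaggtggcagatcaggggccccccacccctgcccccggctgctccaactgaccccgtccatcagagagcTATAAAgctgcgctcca
Myl7: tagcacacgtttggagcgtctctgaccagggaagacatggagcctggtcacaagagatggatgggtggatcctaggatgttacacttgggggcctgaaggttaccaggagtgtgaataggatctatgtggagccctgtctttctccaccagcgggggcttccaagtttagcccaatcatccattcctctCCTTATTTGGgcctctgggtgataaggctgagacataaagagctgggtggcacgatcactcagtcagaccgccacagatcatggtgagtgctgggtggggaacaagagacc
Myl4: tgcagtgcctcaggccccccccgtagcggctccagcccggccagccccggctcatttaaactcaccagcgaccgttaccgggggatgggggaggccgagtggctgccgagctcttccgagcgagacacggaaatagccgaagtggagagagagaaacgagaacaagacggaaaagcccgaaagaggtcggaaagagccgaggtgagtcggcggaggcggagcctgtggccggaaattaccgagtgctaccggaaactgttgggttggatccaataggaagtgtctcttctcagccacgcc
Both Myh6 and Actc1 held TATAAA near the start, Actc1 also held a CArG box, Myl7 held a CArG box, and the Myl4 window held none of the motifs searched. Both strands were searched for the CArG box, the MEF2 motif, AGATAA and TATAAA. The CArG box reads the same way on both strands, and no match to 1 motif overlapped a match to another in the members' windows.

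Of the 36 genes, 30 had a window in the table. Tcap, Xirp1, Atp2a2, Nexn, Hand1 and Tbx5 had no entry. A CArG box lay in 5 of the 30 (16.7%; Actc1, Ldb3, Myl3, Myl7 and Myom1), against 1.81% of 27025 genes. The MEF2 motif lay in 3 of 30 (10.0%; Casq2, Mybpc3 and Ttn) against 3.70% of genes. AGATAA lay in 9 of 30 (30.0%) against 12.7%, and TATAAA in 6 of 30 against 15.7%. These are letter matches in 1 short window a start site, given as a description.

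At E10.5, the ventral bulk libraries carried a broad heart muscle transcript set that the dorsal libraries held at low level. Values are counts scaled to a common library size (CPM) after TMM scaling, with library 1 before library 2. Both ventral libraries lay above both dorsal libraries for 35 of 36 genes, where 27.1% of all 17690 tested genes did so. This count follows from how the genes were chosen, and nothing is read from it. In both ventral libraries 27 of the 36 genes reached 10 CPM, and in both dorsal libraries only Atp2a2 did.

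**Figure D1:**
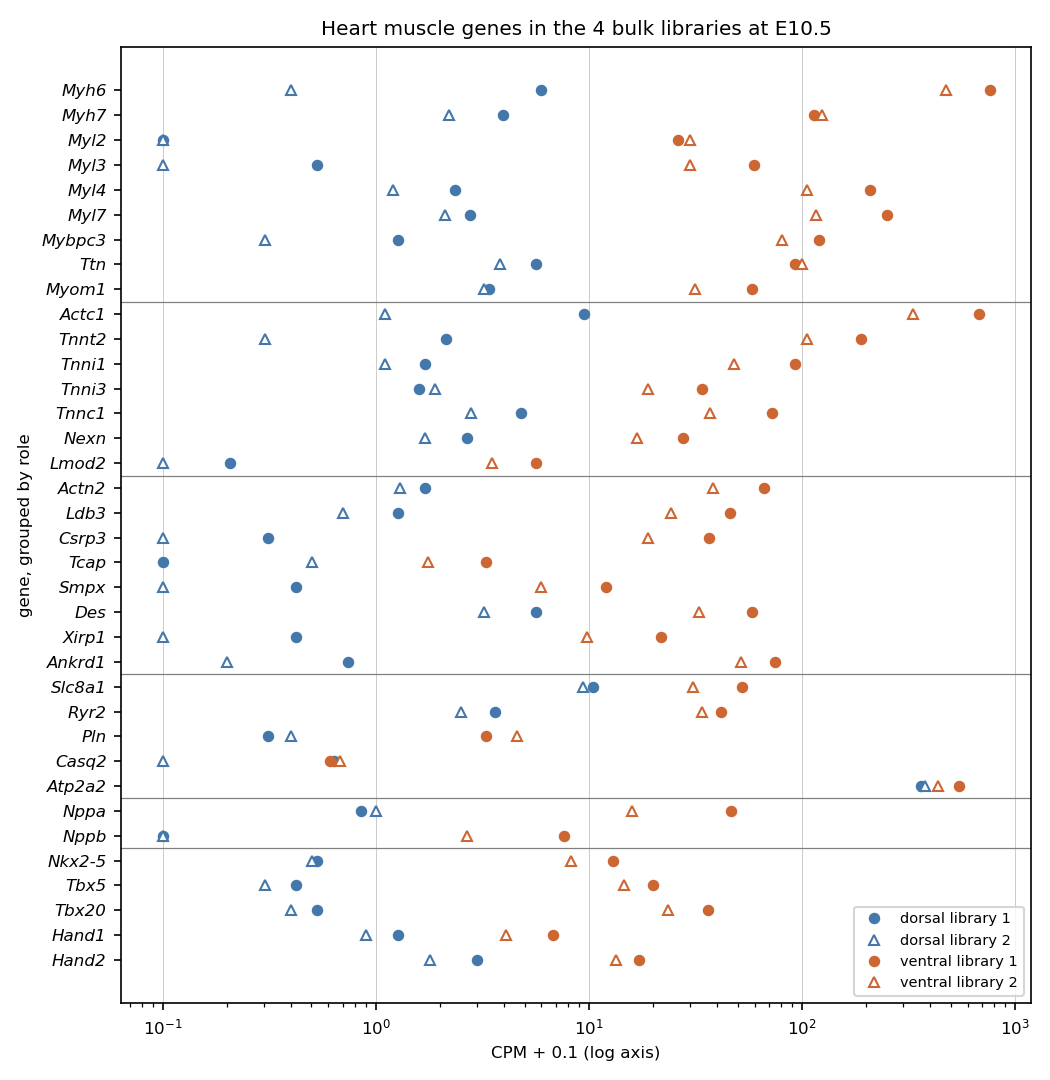
CPM plus 0.1 (log axis) of the 36 genes in the 2 dorsal (blue) and 2 ventral (orange) bulk libraries at E10.5, with circles for library 1 and triangles for library 2 and lines between roles. Orange lies right of blue for every gene except Casq2, and Atp2a2 is the 1 gene with high values on both sides.

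Among the thick filament genes, Myh6, the alpha myosin heavy chain, stood at 5.89 and 0.301 CPM in the dorsal libraries and at 762 and 476 CPM in the ventral ones. Myh7, the beta myosin heavy chain, stood at 3.86 and 2.11 against 114 and 124 CPM. Myl7, the atrial regulatory light chain, stood at 2.68 and 2.01 against 250 and 116 CPM. The ventral pair was far above the dorsal pair for each, and Myh6 had the highest ventral CPM of the whole set. Myl4, the atrial essential light chain, read 2.25 and 1.10 against 208 and 106 CPM. Myl2, the ventricular regulatory light chain, had no read in either dorsal library and 613 reads in the ventral pair, which makes it at least 186-fold higher per read (floor of 3 reads over the dorsal pair). Ventricular and atrial light chains were thus both present. Mybpc3, a myosin-binding protein, read 1.18 and 0.201 against 121 and 80.5 CPM. Ttn, the giant spring protein titin, read 5.57 and 3.72 against 92.5 and 99.8 CPM. Myl3 and Myom1, the ventricular essential light chain and an M-band protein, reached 59.6 and 29.8 CPM and 58.3 and 31.3 CPM in the ventral libraries.

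Among the thin filament genes, Actc1, cardiac alpha-actin, stood at 9.43 and 1.00 CPM in the dorsal libraries and at 675 and 334 CPM in the ventral ones. Tnnt2, cardiac troponin T, stood at 2.04 and 0.201 against 189 and 106 CPM. Dorsal library 1 was the higher of the dorsal pair for both genes, as it was for Myh6, but it stayed far below the ventral libraries. Tnni1, the slow troponin I of the embryonic heart, read 1.61 and 1.00 against 92.9 and 48.0 CPM. Tnni3, the troponin I of the mature heart, read 1.5 and 1.81 against 33.9 and 18.95 CPM. Tnnc1, the calcium-binding troponin C, read 4.71 and 2.71 against 72.1 and 36.9 CPM. All 3 troponin subunits were thus present, with the embryonic troponin I above the mature one in each ventral library. Nexn and Lmod2, which bind actin filaments, reached 27.6 and 16.7 CPM and 5.54 and 3.41 CPM in the ventral libraries.

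Genes of the Z disc and of stretch response followed the same order. Des, the muscle intermediate filament desmin, stood at 5.57 and 3.11 CPM in the dorsal libraries and at 58.1 and 32.7 CPM in the ventral ones. Ankrd1, a stretch-responsive ankyrin repeat protein, stood at 0.643 and 0.1 against 74.4 and 51.5 CPM. Actn2, the alpha-actinin that crosslinks actin at the Z disc, stood at 1.61 and 1.21 against 66.5 and 38.2 CPM. The dorsal and ventral values did not overlap for any of the 8 genes of this role, which follows from how the genes were chosen. Of all tested genes, 27.1% lay higher in both ventral libraries. Ldb3, Csrp3, Xirp1, Smpx and Tcap spanned 1.66 to 45.8 CPM in the ventral libraries, with Tcap, the titin cap, the lowest of them.

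The calcium handling genes were less uniform. Ryr2, the ryanodine receptor, stood at 3.54 and 2.41 CPM in the dorsal libraries and at 41.9 and 33.8 CPM in the ventral ones. Slc8a1, the sodium-calcium exchanger, stood at 10.4 and 9.34 against 52.2 and 30.8 CPM. Atp2a2 stood at 363 and 378 against 547 and 434 CPM, a ratio of means of 1.33. Atp2a2 also serves the endoplasmic reticulum of non-muscle cells, and its dorsal level was close to its ventral level. Casq2, the calcium store protein calsequestrin 2, was the only gene whose groups overlapped, with 0.536 and 0 CPM against 0.513 and 0.582 CPM. Pln reached 3.18 and 4.49 CPM in the ventral libraries.

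Nppa, the atrial natriuretic peptide, stood at 0.750 and 0.904 CPM in the dorsal libraries and at 46.3 and 15.9 CPM in the ventral ones. Nppb, the related B-type peptide, had no dorsal read and 105 ventral reads, at least 31.9-fold higher per read on the same floor. Both peptides were higher in ventral library 1 than in ventral library 2. Among the transcription factors, Nkx2-5 stood at 0.429 and 0.402 against 12.9 and 8.14 CPM. Tbx5 stood at 0.321 and 0.201 against 20.01 and 14.46 CPM. Tbx20 stood at 0.429 and 0.301 against 36.0 and 23.5 CPM. All 5 factors lay higher in the ventral pair, which follows from how they were chosen, and the T-box genes differed most. Hand1 stood at 1.18 and 0.803 against 6.67 and 3.99 CPM, and Hand2 at 2.89 and 1.71 against 17.03 and 13.3 CPM.

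Per length of gene model (RPKM computed from the counts), the order of levels changed. Actc1 led the ventral libraries at 458 and 226 RPKM, followed by Myl7 at 423 and 197 RPKM. Atp2a2 stood at 122 and 96.7 RPKM, and Myh6 at 125 and 78.3 RPKM. Cardiac actin and the atrial light chain Myl7 thus stood above Myh6 per length, whereas the light chain Myl4 stood below it at 63.5 and 32.3 RPKM. The libraries' values for Actc1 and Myl7, and for Atp2a2 and Myh6, overlapped. Ttn, the longest, stood at only 0.865 and 0.934 RPKM.

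The 2 ventral libraries differed in the amount of this RNA. Summed over the 34 genes other than Atp2a2 and Slc8a1, which are also expressed outside muscle, the level was 67.3 and 33.3 CPM in the dorsal libraries and 3296 and 1960 CPM in the ventral ones. These genes made up 0.358% and 0.213% of ventral reads on genes. Ventral library 1 was higher than ventral library 2 for 31 of the 36 genes, with a median ratio of 1.72 (0.709 to 2.95). In bulk RNA, fewer cells of a type and less RNA per cell cannot be told apart.

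Markers of other cell types also differed between these 4 libraries. Both ventral libraries lay above both dorsal ones for 22 of 28 other heart muscle genes, 6 of 8 smooth muscle, 10 of 10 mesenchyme, 8 of 10 mesothelium and epicardium, 9 of 10 endothelium and endocardium, 8 of 8 erythroid, 8 of 8 immune and 8 of 8 hepatoblast markers. Of all 17690 tested genes, 27.1% did so, and the lists were chosen with earlier results of these data known. For skeletal muscle the count was 3 of 12. Myod1, the skeletal master regulator, stayed at or under 0.107 CPM in all 4 libraries, but some other markers of this list did not. Dorsal library 1 held 43 reads of Myh3, 14 of Myog and 7 of Myf5, where dorsal library 2 held 2, 0 and 1. The ventral libraries held 2 and 0 reads of Myh3, 2 and 1 of Myog and none of Myf5. Acta1 stood at 2.89 and 0.402 CPM in the dorsal and 32.8 and 16.5 CPM in the ventral libraries. Summed over this list, the level was 17.1 and 4.62 CPM dorsally and 44.6 and 23.8 CPM ventrally. The summed mesenchyme level was 93.4 to 113 CPM in the dorsal and 606 to 992 CPM in the ventral libraries. The summed smooth muscle level was 37.0 to 42.9 against 189 to 323 CPM, the immune level 24.1 to 37.9 against 76.6 to 246 CPM, the erythroid level 217 to 261 against 420 to 607 CPM, and the hepatoblast level 215 to 278 against 1753 to 2167 CPM. The part of these cell types in the heart muscle levels was not tested. The epithelium markers summed to 2272 to 2359 CPM dorsally and 2072 to 2155 CPM ventrally. Pdx1 itself, whose reporter was sorted, stood at 236 and 244 CPM dorsally and 99.5 and 112 CPM ventrally.

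Isl1, a gene of the second heart field, went the other way from the 36 genes, with 306 and 372 CPM in the dorsal and 12.4 and 9.73 CPM in the ventral libraries. It also marks the endocrine lineage and the mesenchyme of the dorsal bud. Between the ventral libraries, library 1 over library 2 was 1.68 for the summed 34 genes, 1.71 for smooth muscle, 1.64 for mesenchyme and 3.21 for immune markers. The same ratio was 1.88 for skeletal muscle, 1.45 for erythroid, 1.40 for other heart muscle, 1.24 for hepatoblast and 1.19 for endothelium and endocardium markers. It was 1.04 for epithelium, 0.941 for pancreatic progenitor and 0.933 for mesothelium and epicardium markers. The lists thus spanned a range in which the heart muscle sum lay near smooth muscle and mesenchyme and above epithelium.

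After E10.5 the excess was no longer seen. Summed over the 34 genes, every one of the 12 bulk libraries at E14.5 and E17.5 lay between 22.4 and 50.4 CPM, on both sides. Myh6 ranged from 0 to 0.372 CPM in these 12 libraries, Actc1 from 0 to 1.20 CPM and Tnnt2 from 0 to 0.847 CPM. Nppa did not exceed 0.092 CPM. Myl2, Lmod2 and Csrp3 had no read in any of them. These 7 genes were thus at or near 0 on both sides later, in libraries sorted on other reporters. Others were not: besides Atp2a2 and Slc8a1, Des reached 11.55 CPM, Hand2 8.66 CPM, Tnnc1 7.23 CPM and Actn2 6.92 CPM in the highest of the 12 libraries for each.

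**Figure D2:**
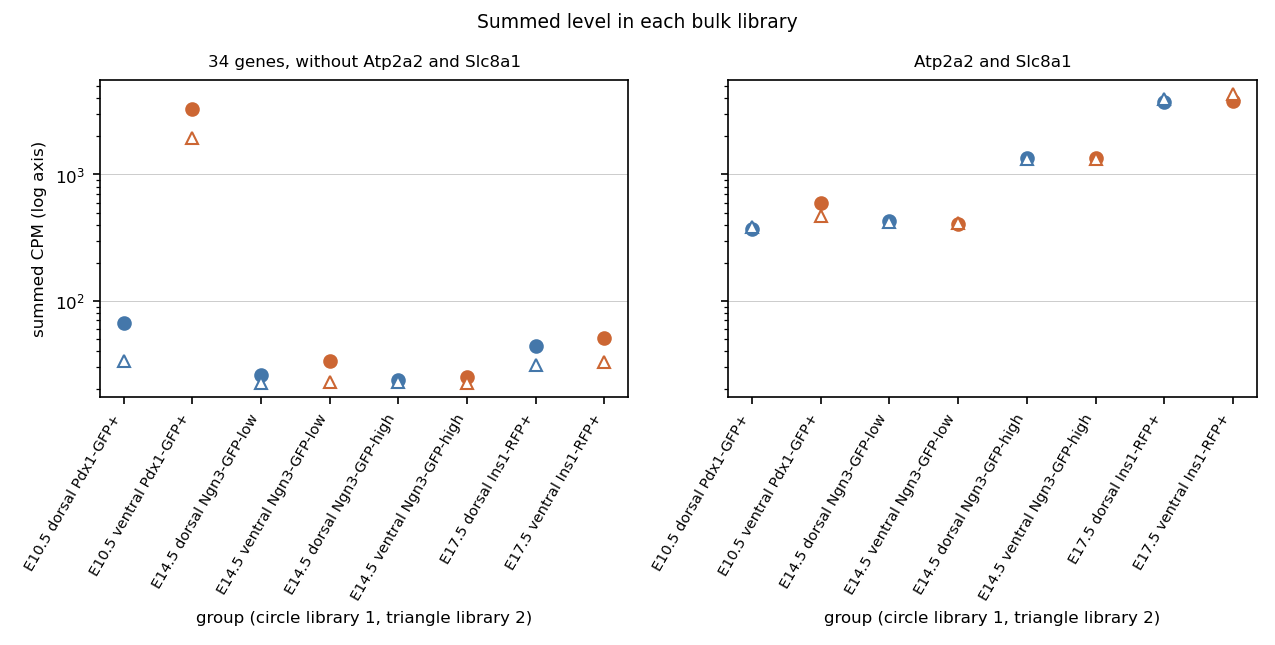
Summed CPM (log axis) of the 34 genes (left panel) and of Atp2a2 with Slc8a1 (right panel) in each of the 16 bulk libraries, dorsal in blue and ventral in orange, circles for library 1 and triangles for library 2. The 34 genes stand out in the E10.5 ventral pair at 1960 and 3296, while Atp2a2 and Slc8a1 are highest at E17.5 on both sides. On the ventral side Atp2a2 and Slc8a1 are lower in E14.5 Ngn3-GFP-low libraries (406 and 416) than at E10.5 (599 and 465).

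These later stages were tested between sides with edgeR's quasi-likelihood test (Benjamini-Hochberg adjustment over 17690 genes, adjusted p under 0.05). All 36 genes passed the filter on low counts, many of them only through the E10.5 ventral libraries, so low counts limit what could be called. None of the 36 was called in the Ngn3-GFP-high cells, where 0.486% of all genes were, with 0 at an unadjusted p under 0.05 and 0 by DESeq2. In the Ngn3-GFP-low cells, edgeR also called 0 (0.017% of all genes), with 3 at an unadjusted p under 0.05 (Casq2, Nkx2-5 and Hand1) and 0 by DESeq2. In the Ins1-RFP+ cells at E17.5, edgeR called 0 (0.0283% of all genes), with 3 at an unadjusted p under 0.05 (Tnnt2, Ryr2 and Hand1) and 0 by DESeq2. Tnnt2 read 0 and 0 CPM in the dorsal and 0.847 and 0.63 CPM in the ventral E17.5 libraries, and Ryr2 0.481 and 0.541 against 2.23 and 0.730 CPM. Groups did not overlap for either gene, but each value rests on few reads. The smooth muscle markers moved with them, at 37.4 and 24.3 CPM in the dorsal and 146 and 44.0 CPM in the ventral E17.5 libraries, and their part in these values was not tested.

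Some of the 36 genes differed between the endocrine progenitor gates at E14.5. In the dorsal pancreas, 8 were higher in Ngn3-GFP-high than in Ngn3-GFP-low cells and 10 lower, where 29.3% and 32.3% of all tested genes were. Without dorsal high library 1, only 9 of the 36 were called in place of 18. In the ventral pancreas, 6 were higher and 9 lower, where 29.5% and 32.5% of all genes were. Between 6 and 7 of the 36 had no read in both libraries of a gate and side, so the share called is not set against that of all genes. The median log2 difference over the 36 was 0.00 on both sides.

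Atp2a2 and Slc8a1 made the clearest rise. Slc8a1 stood at 4.71 and 4.82 CPM in dorsal low and 44.4 and 44.0 CPM in dorsal high libraries, and at 5.57 and 3.97 against 53.8 and 55.5 CPM in ventral ones. The edgeR log2 difference was 3.21 (SE 0.216, adjusted p = 9.03e-09) dorsally and 3.52 (SE 0.216, adjusted p = 3.05e-09) ventrally. Atp2a2 ranged from 400 to 424 CPM in the 4 low libraries and from 1268 to 1296 CPM in the 4 high ones. Its edgeR log2 difference was 1.62 (SE 0.111, adjusted p = 1.1e-08) dorsally and 1.66 (SE 0.111, adjusted p = 8.22e-09) ventrally. Both are calcium transporters that endocrine cells use as well. At E17.5, Atp2a2 reached 3663 to 4241 CPM and Slc8a1 49.1 to 63.9 CPM in the Ins1-RFP+ libraries.

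**Figure D3:**
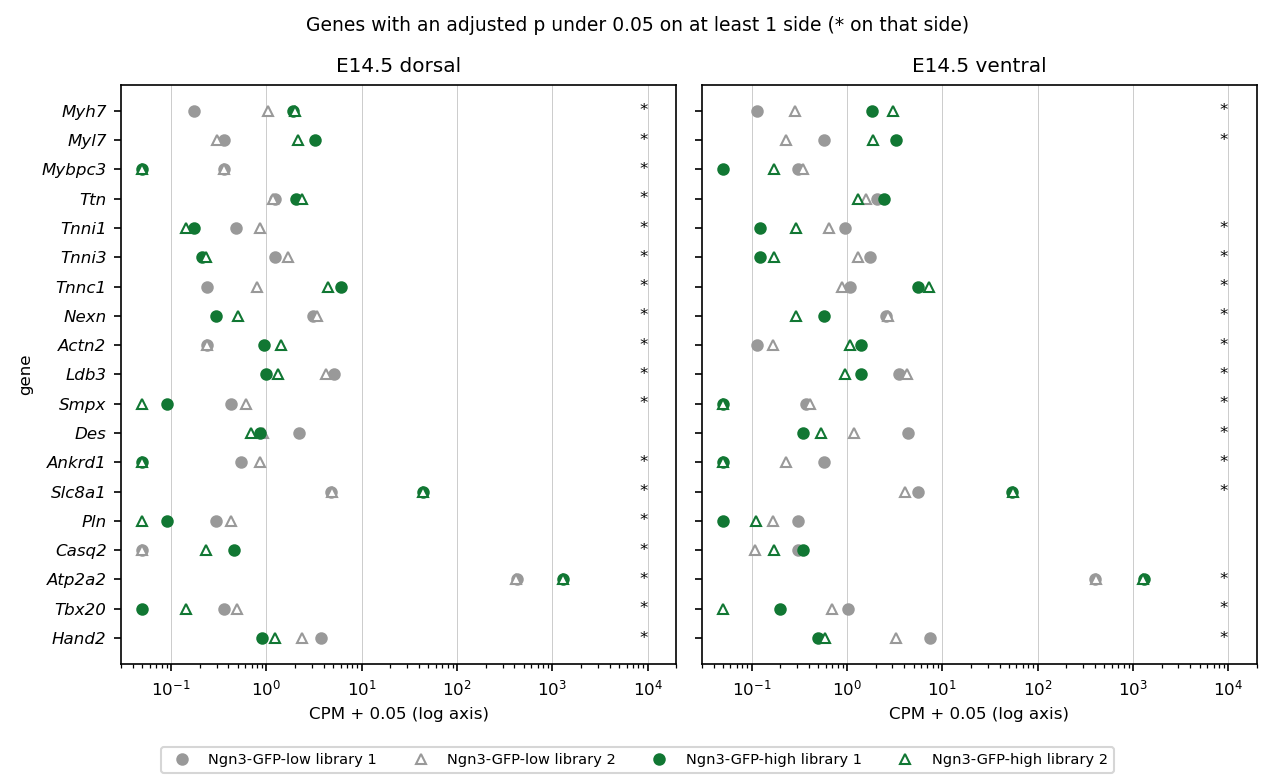
CPM plus 0.05 (log axis) of the genes with an adjusted p under 0.05 on at least 1 side at E14.5, for the dorsal (left) and ventral (right) pancreas, grey for Ngn3-GFP-low, green for Ngn3-GFP-high, circles for library 1 and triangles for library 2, with an asterisk where that side was called. Slc8a1 and Atp2a2 are the 2 genes far to the right, and nearly all others lie below 10 CPM.

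The other called genes were low in level. Tnnc1, also expressed in slow muscle, read 0.186 and 0.752 CPM in dorsal low and 6.05 and 4.40 CPM in dorsal high libraries. Its edgeR log2 difference was 3.48 (SE 0.518, adjusted p = 3.82e-05), and 2.77 (SE 0.457, adjusted p = 1.01e-04) in ventral cells, where it read 1.04 and 0.830 against 5.50 and 7.23 CPM. Myl7 rose by a log2 of 3.27 dorsally (SE 0.723, adjusted p = 0.0012, edgeR) and Myh7 by 3.90 ventrally (SE 0.661, adjusted p = 1.27e-04, edgeR). Neither myosin gene exceeded 3.20 CPM in any of the 8 libraries. Actn2 was also higher in the high gate on both sides, Myl7 and Myh7 too, and Casq2 and Ttn on the dorsal side.

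Among the lower genes, Tnni3 read 1.18 and 1.63 CPM in dorsal low and 0.163 and 0.183 CPM in dorsal high libraries. Its edgeR log2 difference was -2.98 (SE 0.560, adjusted p = 3.25e-04) dorsally and -3.75 (SE 0.633, adjusted p = 1.22e-04) ventrally. Ldb3 read 5.02 and 4.13 against 0.940 and 1.28 CPM dorsally, with edgeR log2 differences of -2.09 (adjusted p = 1.67e-04) and, ventrally, -1.78 (adjusted p = 7.12e-04). Nexn read 3.04 and 3.32 against 0.245 and 0.459 CPM dorsally, with edgeR log2 differences of -3.28 (adjusted p = 2.86e-04) and, ventrally, -2.78 (adjusted p = 1.15e-03). No low library overlapped a high one for these 3 genes. Hand2, a mesodermal factor, read 7.38 and 3.20 against 0.446 and 0.542 CPM ventrally (edgeR log2 difference -3.38, adjusted p = 3.00e-04). Ankrd1 had 21 dorsal and 11 ventral reads in the low gate and none in the high gate, at least 8.08-fold and at least 3.68-fold lower per read (adjusted p = 1.43e-03 and 0.0129, edgeR). Smpx, Tnni1 and Tbx20 were also lower on both sides, Mybpc3, Pln and Hand2 in the dorsal and Des in the ventral pancreas. Ankrd1, Smpx, Tnni1, Tbx20, Mybpc3 and Pln had at most 15 reads in any E14.5 library. The filter on low counts included the E10.5 ventral libraries, where these genes were higher, so little weight is put on their calls.

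Markers of other cell types fell from the low to the high gate too: 9 of 10 endothelial markers dorsally and 10 of 10 ventrally, 6 of 8 immune markers on each side, and 3 and 9 of 10 mesenchyme markers. Of all tested genes, 32.3% dorsally and 32.5% ventrally were lower. The epithelium sum fell as well, from 3709 and 4043 to 2400 and 2373 CPM dorsally. Ventrally it fell from 3397 and 3561 to 2410 and 2503 CPM. Within that list Foxa2 and Foxa3 rose on both sides and Krt8 ventrally. The part of any of these cell types in the 36 genes' differences was not tested. The difference between the gates did not differ between sides for any of the 36 genes by edgeR (0 called, 0.0113% of all genes), with 2 at an unadjusted p under 0.05 and 0 by DESeq2.

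The single cells allow a look at whether these transcripts lie in the sorted cells themselves. Bulk pools and single cells were made by different protocols (poly(A) libraries of pooled cells and Smart-seq2) and stand in separate tables, so levels across them are set side by side with no test, as CPM of the reads on genes without TMM scaling. In E10.5 ventral Pdx1-GFP+ cells, the 34 genes summed to 3579 and 2134 CPM in the bulk libraries and to a mean of 30.7 CPM over 59 single cells, a ratio of means of 93.1. The highest of the 59 cells reached 426 CPM, and the 3 sets ranged from 21.6 to 128 CPM. In dorsal Pdx1-GFP+ cells, the same sum was 71.5 and 35.1 CPM in bulk and 37.2 CPM over 27 cells, a ratio of 1.43. No ventral cell of this sort thus came near the level of either ventral bulk library.

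**Figure D4:**
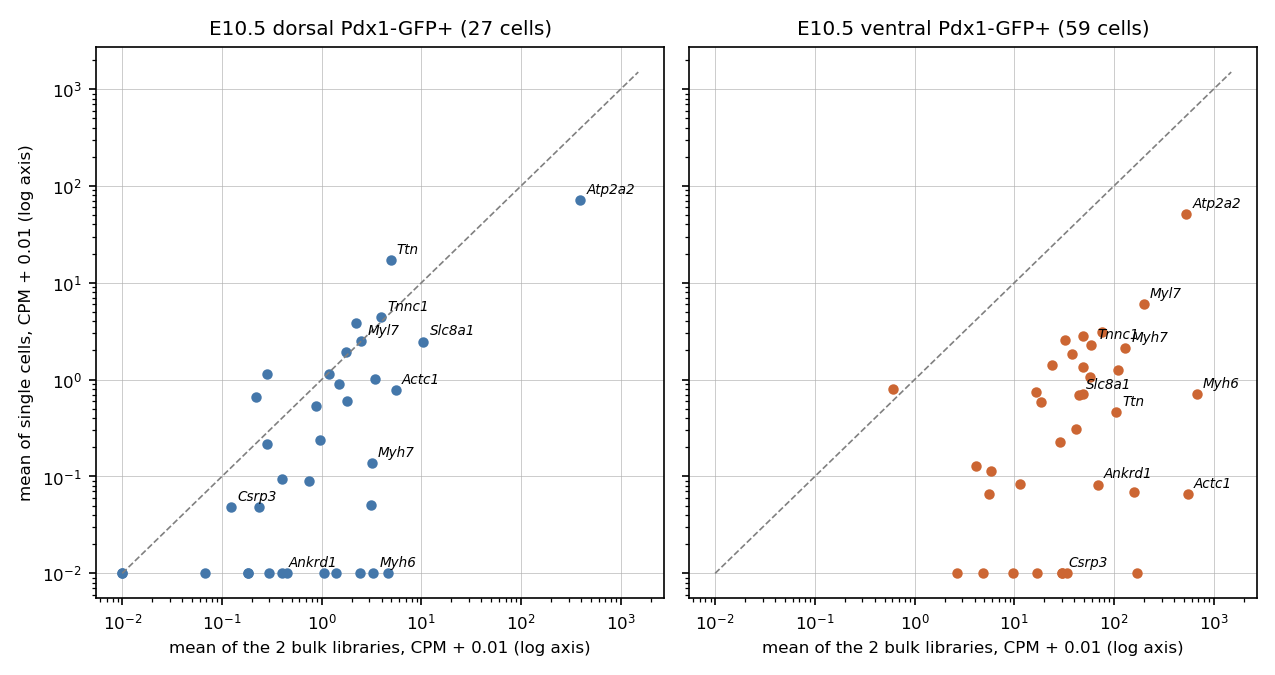
Mean CPM plus 0.01 of each of the 36 genes in the 2 bulk libraries (horizontal, log axis) against its mean in single cells of the same sort (vertical, log axis), dorsal left and ventral right, with the dashed line marking equal values. Ventral points lie below the line for all genes but 1, whereas dorsal points lie on both sides of it.

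Both ventral bulk libraries were above the highest of the 59 cells for 24 of the 36 genes, and above the mean of the cells for 35. In the dorsal sort these counts were 10 and 20 of 36. The share of all genes that did so was not computed, so nothing is read from these counts. Atp2a2, common in the cells, also stood higher in bulk, with a ratio of means of 10.4 ventrally and 5.4 dorsally. Myh6 stood at 828 and 519 CPM in the ventral bulk libraries and at a mean of 0.695 CPM in the cells, with 24.7 CPM in the highest cell. Actc1 stood at 733 and 363 CPM against a mean of 0.0558 CPM. Tnnt2 stood at 205 and 115 CPM against a mean of 0.0586 CPM. Actin and troponin T, 2 of the most abundant heart muscle transcripts in the bulk libraries, were thus close to absent from these cells. Myl4, Myl2, Nppa, Csrp3, Lmod2, Smpx, Tcap and Xirp1 had no read in any of the 59 cells. Myl7 was the least rare of the myosin genes, with a mean of 5.98 CPM against 271 and 126 CPM in bulk. Casq2 was the 1 gene higher in cells than in bulk.

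Other marker lists differed between bulk and cells of the same ventral sort too. The bulk level over the mean of the cells was 57.1 for erythroid, 47.2 for immune, 11.5 for smooth muscle and 5.03 for mesenchyme markers, and 0.6249 for epithelium and 0.550 for hepatoblast markers. For other heart muscle genes it was only 2.40. It was 4.48 for skeletal muscle, 1.86 for mesothelium and epicardium, 1.47 for endothelium and endocardium and 0.765 for pancreatic progenitor markers. In the dorsal sort the ratio was 68.2 for erythroid and 4.16 for immune markers. Erythroid RNA was thus far higher in bulk than in cells on both sides. The heart muscle sum was so on the ventral side and not on the dorsal one. However, the genes of that sum were chosen by higher counts in these ventral than in these dorsal bulk libraries. The difference between sides follows at least in part from that choice, and nothing is read from it. What part the choice of cells for sequencing had in the ratios of bulk to cells was not tested.

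Across all 447 cells, a gene was counted in a cell at 10 CPM or more. Lmod2, Csrp3, Xirp1 and Ankrd1 reached this in 0 of 447 cells (an upper limit of 0.671% at 3 cells of the total, and of 0.822% by the exact 95% interval). Actc1 reached it in 9 cells, Tnnt2 in 7, Tbx20 in 3, Nppa, Nppb, Tbx5, Hand2 and Myl2 in 2 each, and Nkx2-5, Hand1, Smpx and Tcap in 1 each. Atp2a2 reached it in 372 cells (83.2%, exact 95% interval 79.4 to 86.6%), in at least 19 cells of every sort at E9.5 and E10.5. Pan-cellular Atp2a2 was thus common while the cardiac factors and most sarcomere genes were rare. These intervals cover counting error only.

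**Figure D5:**
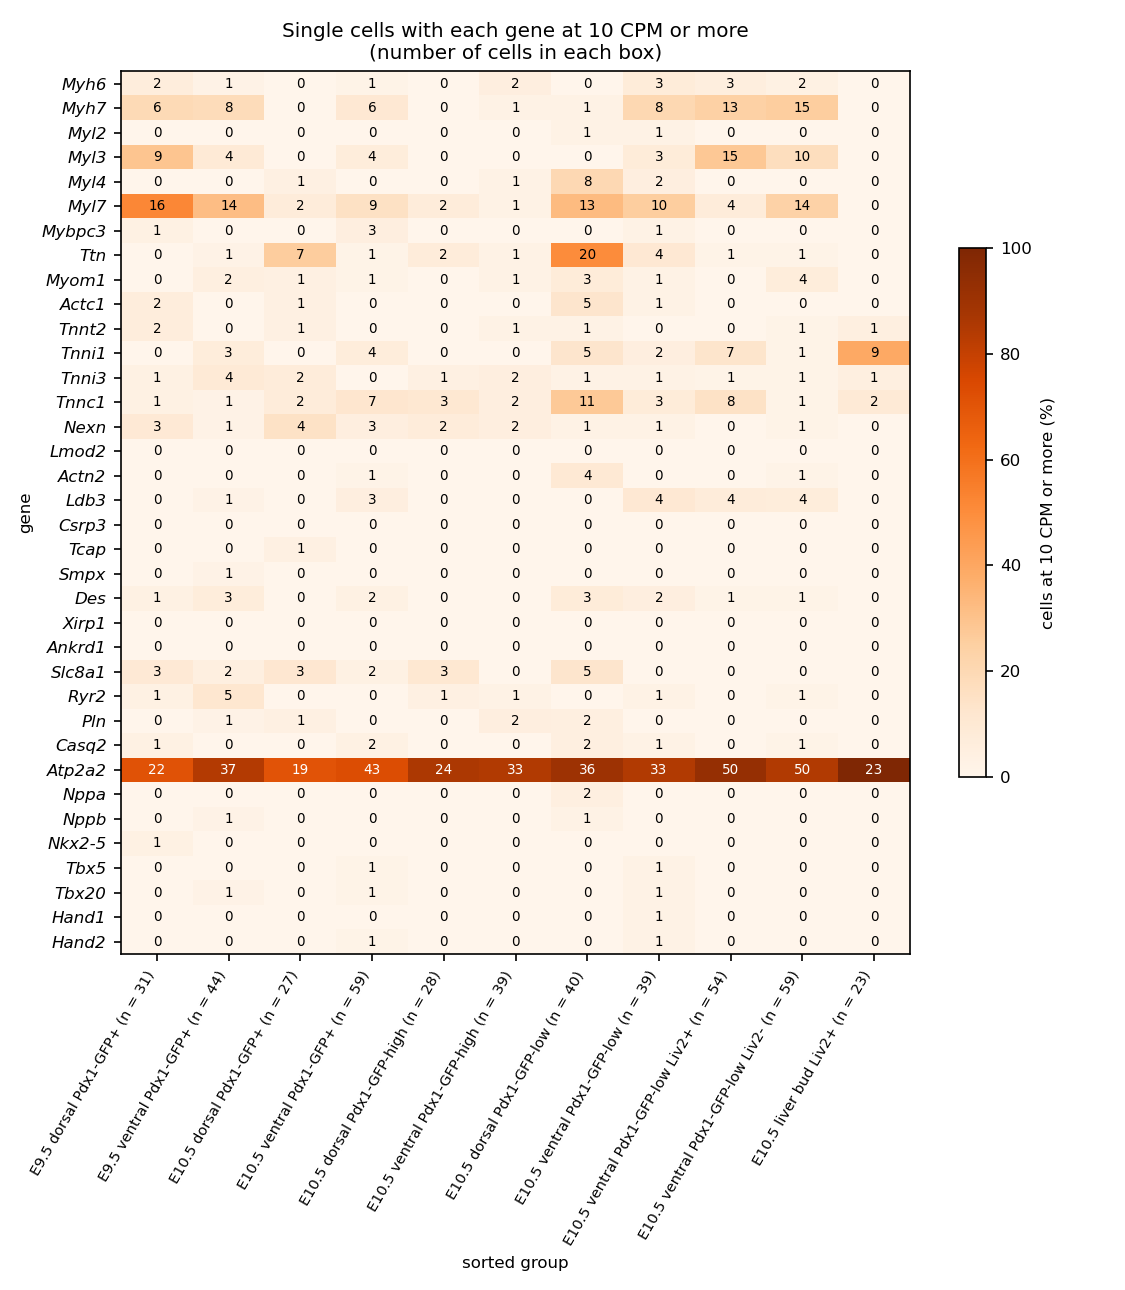
Share of single cells (colour, 0 to 100%) with each of the 36 genes at 10 CPM or more in the 11 sorts at E9.5 and E10.5, with the number of cells printed in each box. Atp2a2 is filled in every sort, and Myl7, Myh7, Myl3, Ttn, Tnnc1 and Tnni1 form the few other visible patches.

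A few of the genes were found more often, and in different sorts. Myl7 reached 10 CPM in 85 cells, among them 16 of 31 E9.5 dorsal, 14 of 44 E9.5 ventral and 13 of 40 E10.5 dorsal Pdx1-GFP-low cells. Myh7 did so in 58 cells, with 15 of 59 ventral Liv2-, 13 of 54 ventral Liv2+ and 8 of 39 ventral Pdx1-GFP-low cells, and a single cell of the 3 dorsal sorts at E10.5. Myl3 did so in 45 cells, with 15 of 54 ventral Liv2+ and 10 of 59 ventral Liv2- cells, and no cell of those dorsal sorts. Myh7 and Myl3 were thus mainly found in ventral Pdx1-GFP-low cells and at E9.5. Ttn reached 10 CPM in 38 cells, of which 20 were among the 40 dorsal Pdx1-GFP-low cells and 7 among the 27 dorsal Pdx1-GFP+ cells. Myl4 did so in 12 cells, 8 of them dorsal Pdx1-GFP-low. Tnnc1 did so in 44 cells, 11 of them dorsal Pdx1-GFP-low, and Tnni1 in 31, with 9 of 23 liver bud cells. After thinning every cell to 200000 reads the counts were 102 cells for Myl7, 61 for Myh7, 43 for Myl3 and 38 for Ttn, and no cell was too shallow to be thinned.

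Genes of the heart muscle set seldom met in a cell. Of the 34 genes, 171 cells had none at 10 CPM or more, 150 had 1, 83 had 2, 27 had 3, 11 had 4, 4 had 5 and 1 had 9. Of 5 defining genes (Myh6, Actc1, Tnnt2, Myl7 and Nkx2-5), 340 cells had none, 98 had 1, 9 had 2 and 0 had 3 or more (exact 95% upper ends of 0.822% of the 447 cells and 6.06% of the 59 ventral Pdx1-GFP+ cells). Myh6 reached 10 CPM in 14 cells, with a highest value of 127 CPM. None of these 14 had Actc1 or Tnnt2 at that level, and all 14 held the epithelial gene Epcam at 542 to 1553 CPM. Cells with Myh6 were thus epithelial by that marker and lacked the other 2 genes. Actc1 and Tnnt2 were rare in all cells, and Epcam was not compared with cells without Myh6. Neither trait is therefore read as particular to these 14.

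Of the 447 cells, 17 had 5 or more of the 36 genes at 10 CPM or more (3.80%, exact 95% interval 2.23 to 6.02%). Of these, 9 were among the 40 dorsal Pdx1-GFP-low cells (22.5%, interval 10.8 to 38.5%), whereas each other sort held 0 to 2. This order depends on the threshold: at 50 CPM the share was 0% in dorsal and 2.56% in ventral Pdx1-GFP-low cells. The count also includes Atp2a2 and Slc8a1. Of the 34 genes without them, only 5 of the 447 cells had 5 or more at 10 CPM. The most in a single cell was then 5 in dorsal and 9 in ventral Pdx1-GFP-low cells. The ventral Pdx1-GFP+ sort, matching the bulk ventral libraries, held 1 of 59 (1.69%, interval 0.0429 to 9.09%). The summed 34 genes ranged from 44.6 to 185 CPM over the 6 dorsal Pdx1-GFP-low sets, from 24.1 to 135 CPM over 5 ventral Pdx1-GFP-low sets, and from 3.98 to 13.8 CPM over 5 dorsal Pdx1-GFP-high sets. In the dorsal Pdx1-GFP-low sets other heart muscle markers summed to 814 to 1705 CPM, against 224 to 422 CPM in the ventral ones. That list holds Isl1, which alone stood at 693 to 1443 CPM in the dorsal and 0 to 32.1 CPM in the ventral sets.

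The 3 cells with the largest sum over all 36 genes each had a different makeup. The first, a dorsal Pdx1-GFP-low cell (set 6, cell 11), held Actc1 at 1529 CPM and Myl7 at 12.4 CPM, with no read of Myh6 or Tnnt2. It held Isl1 at 1463 CPM and Epcam at 293 CPM, and accounts for 1978 of the 2122 Actc1 reads of its sort. The second, a ventral Pdx1-GFP-low cell (set 6, cell 3), held 10 of the 36 genes, among them Tnni1 at 250 CPM, Tbx5 at 137 CPM, Hand1 at 114 CPM, Ttn at 67.3 CPM and Mybpc3 at 58.0 CPM. It had no Myh6, and it held 9 of 10 mesenchyme and 5 of 8 smooth muscle markers, with Col1a1 at 12685 CPM and Acta2 at 1862 CPM. The third, a dorsal Pdx1-GFP+ cell (set 3, cell 2), held Atp2a2 at 259 CPM, Ttn at 184 CPM, Slc8a1 at 25.9 CPM and Tnnc1 at 22.4 CPM, and Isl1 at 1199 CPM. Its place rests on Atp2a2: over the 34 genes it held 209.6 CPM, below 471.1 CPM in another ventral Pdx1-GFP-low cell (set 6, cell 8). None of the 3 cells held Myh6 with Actc1 and Tnnt2, so none had the gene combination of the ventral bulk libraries.

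Sums of reads over numbered sets of 3 or more cells (37 sets in 11 sorts) were tested in the same way as the bulk libraries, over 17433 genes. The filter on low counts left 25 of the 36, without Myl2, Lmod2, Csrp3, Tcap, Smpx, Xirp1, Ankrd1, Nppb, Nkx2-5, Tbx5 and Hand1. Between ventral and dorsal E10.5 Pdx1-GFP-low sets, 4 of the 25 were higher ventrally, where 13.9% of all genes were, and 2 were lower, where 11% were. The median log2 difference was -0.81 over the 25 and 0.00 over all genes.

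Myh7 read 3.92, 18.97, 13.9, 22.7 and 5.31 CPM in the 5 ventral sets, and 0 to 4.95 CPM, with a median under 1, in the 6 dorsal sets. Its edgeR log2 difference was 3.81 (SE 1.37, adjusted p = 0.0424). Myl3 had 57 reads in 3 of the 5 ventral sets and none in the dorsal ones, at least 21.4-fold higher per read (adjusted p = 0.00701, edgeR). Ldb3 had 210 reads, mostly in set 5 (22.9 CPM), and none in the dorsal sets, at least 78.9-fold higher per read (adjusted p = 0.0146, edgeR). Tbx20 read 0.095, 2.16, 0, 0 and 2.00 CPM in ventral sets and was at 0 in 5 of the 6 dorsal sets (42 against 2 reads, edgeR adjusted p = 0.0295). Dorsal and ventral sets overlapped for all 4 genes.

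In the other direction, Actn2 read 8.94, 0.309, 0.222, 0.528, 4.60 and 3.66 CPM in the dorsal sets and 0 to 0.720 CPM in the ventral ones (edgeR log2 difference -3.53, SE 1.20, adjusted p = 0.0303). Nppa had 63 reads in the dorsal sets and none in the ventral sets, at least 18.6-fold lower per read (adjusted p = 0.0307, edgeR). Ttn, the giant filament protein, ranged from 20.7 to 77.4 CPM in the dorsal sets and from 0 to 9.80 CPM in the ventral ones, without overlap. Its edgeR log2 difference of -3.56 (SE 1.64, adjusted p = 0.108) did not pass the threshold. Myh6, Actc1 and Tnnc1, taken in either direction, also missed it, with adjusted p-values of 0.0541, 0.0631 and 0.0863 by edgeR. Of these, Myh6 reached 10 CPM in ventral Pdx1-GFP-low cells (13.8, 28.8 and 127 CPM) and in no dorsal one. Mesenchyme markers were higher in the ventral sets for 5 of 10, mesothelium and epicardium markers for 4 of 10, and set 6 held 2034 CPM of mesenchyme markers where the ventral median was 61.5 CPM. The part of those cells in these differences was not tested.

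With 1 set left out at a time, Myl3 and Ldb3 kept their calls in every case, and the number called ranged from 3 (without ventral set 3) to 7 (without dorsal set 2). Actn2 lost its call without dorsal set 1 or ventral sets 1, 3, 5 or 6 (edgeR adjusted p 0.0552 to 0.0788), and Myh7 without dorsal sets 1, 3, 4, 5 or 6 or ventral sets 2, 3 or 5 (0.0634 to 0.0803, edgeR). Nppa lost it without dorsal set 2 or ventral sets 1, 3 or 6 (edgeR adjusted p 0.0521 to 0.0569), and Tbx20 without dorsal sets 1, 3 or 5 or ventral sets 2 or 6 (0.0517 to 0.0751, edgeR). Under the other settings Myl3 kept its call, and Ldb3 lost it with DESeq2 (adjusted p = 0.0727). Myh7 also lost it with RLE scaling or no filter on low counts, Actn2 with no filter or a replicate block, Nppa with DESeq2, a block or larger sets, and Tbx20 with DESeq2 or no filter.

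In the other set comparisons, edgeR called none of the 25 genes. For Pdx1-GFP+ cells at E10.5, 0.47% of all genes were called, with 7 of the 25 at an unadjusted p under 0.05 and 2 by DESeq2 (Myh6 and Tnni1). For Pdx1-GFP-high cells, 0.00574% of all genes were called, with 6 at an unadjusted p under 0.05 and 2 by DESeq2 (Tnni1 and Slc8a1). For ventral Pdx1-GFP-low against Pdx1-GFP-high cells, 0.952% were called, with 10 at an unadjusted p under 0.05 and 1 by DESeq2 (Slc8a1). At E9.5, and for Liv2- against Liv2+ and E10.5 against E9.5 ventral cells, 0% of genes were called. In these 3 comparisons 1, 0 and 0 of the 25 had an unadjusted p under 0.05, and DESeq2 called 0 in each. The ventral to dorsal difference itself differed between the Pdx1-GFP-low and Pdx1-GFP-high gates for Tbx20 (edgeR log2 6.92, SE 2.27, adjusted p = 0.0446) and Pln (edgeR log2 -11.16, SE 3.60, adjusted p = 0.0447), where 11.1% of all genes were called. Tbx20 and Pln had under 10 CPM in every set of these 4 sorts, and leaving out 1 set could remove either call. These 2 differences are fitted values with groups at 0 reads, so they are no bound on the fold.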

How the data were processed

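RNA was measured in 16 bulk libraries of sorted cell pools (poly(A), NEBNext Ultra Directional) and in 447 single cells (Smart-seq2), per the labels' protocols. The authors deposited read counts per gene, made with TopHat2 2.1.0, Bowtie2 and HTSeq 0.6.0 on GRCm38, per the submitters' processing notes. Neither the annotation release nor the strand setting is stated in those notes. The deposited RPKM tables were not used, and RPKM was computed from the counts and gene lengths. Gene overlaps came from GENCODE vM21.

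Reads on genes ranged from 8779418 to 24551520 in bulk libraries and, in cells, from 201191 to 1738015 (median 1064163). Intervals cover counting error only. Groups came from the labels, which do not say what a library or set number marks, so p-values measure the spread between these samples. The growth protocol of 25 ventral E9.5 cells describes a human stem cell culture. These cells were kept as mouse cells.

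Bulk libraries and summed counts of sets of 3 or more cells were fitted separately with edgeR 4.0.16 (R 4.3.3, filterByExpr by group, TMM, quasi-likelihood test, Benjamini-Hochberg adjustment over all genes tested). The SE was the log2 difference over the square root of F. The 3 smaller sets and the E15.5 cells were left out of tests. Cell CPM used plain totals, and no doublet caller was run. Levels are reported for 16 genes chosen for their roles and, in each tested comparison, for up to 4 called genes a direction with the smallest adjusted p. Other genes named were chosen after their values were seen. The 36 genes and all marker lists were chosen with earlier results of these data known.

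The bulk fit was tested on simulated data for the E14.5 Ngn3-GFP-low comparison (17690 genes), where it recovered 68% of 2-fold and 93% of 4-fold changes. For the E10.5 Pdx1-GFP-low sets (17433 genes) it recovered 12% and 38%. These shares are not broken down by read level. On each side, Atp2a2 was the only gene of the heart muscle set at 5 CPM or more in both E14.5 Ngn3-GFP-low libraries. The shares are therefore not read as the recovery for genes with few reads. The comparisons were repeated with DESeq2 1.42.0, with RLE in place of TMM, with all genes unfiltered, with a replicate block, by leaving out each library or set, with larger sets, with cells thinned to 200000 reads and with other read thresholds.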

Additional observations from a re-analysis of the deposited data

Results flagged for a closer look

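A set that stood apart from the rest of its group was looked for in 16 groups of values, and 5 were found. The cutoff is meant to flag about 1 in 20 groups of normally distributed values. Most of these groups were CPM of genes already called between the Pdx1-GFP-low sorts, some with sets at 0. The 5 found are thus not set against that rate. In the dorsal Pdx1-GFP-high sets at E10.5, the 34 summed genes were lowest in set 6 at 3.977 CPM, and the next of the 5 sets stood at 11.172 CPM. In the 6 dorsal Pdx1-GFP-low sets, set 2 was highest for Myh7 at 4.95 CPM (next 0.337 CPM) and for Nppa at 8.972 CPM (next 2.224 CPM). Tbx20 was at 0.084 CPM in set 6 of that sort and at 0 in the others, a value that rests on 2 reads. In the 5 ventral Pdx1-GFP-low sets, Ldb3 was highest in set 5 at 22.939 CPM, and the next set stood at 4.488 CPM.

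The ventral to dorsal difference differed between the Pdx1-GFP-low and Pdx1-GFP-high gates for 2 genes, by edgeR's test of the difference of differences. The log2 value was 6.917 for Tbx20, the T-box factor (adjusted p = 0.0446), and -11.156 for Pln, phospholamban (adjusted p = 0.0447). Both are fitted values with groups at 0 reads.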

How the results depend on the processing

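The counts of called genes stayed within 1.5 times the reported count in 123 of 132 repeats, and for the differences between gates in 16 of 39. Most comparisons called 0 genes, and a repeat that also called 0 was counted as within this range. With no filter on low counts, 2 genes were called between sides in Ngn3-GFP-low cells (Nkx2-5 and Hand1) and 1 in Ins1-RFP+ cells (Tnnt2). DESeq2 called 2 genes in Pdx1-GFP+ sets, 2 in Pdx1-GFP-high sets and 1 in ventral low against high sets, and with sets of 5 or more cells the last count was also 1 (Myl3). Leaving out 1 library or set gave 9 to 15 genes for the dorsal gates at E14.5, 3 to 7 for the Pdx1-GFP-low sets and 0 to 1 for ventral low against high sets (1, Myh7, without ventral high set 4). For the difference between gates in sets (2 genes), the count was 1 with no filter, 1 with a replicate block, 0 with larger sets, 0 with thinned cells and 0 to 4 with 1 set left out. Tbx20 and Pln lost that call in 16 of 25 and 16 of 26 repeats. The cause of each was not tested.

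The share of cells with 5 or more of the 36 genes depended on the threshold. With 1 read as the threshold it was 51.6% in E9.5 dorsal, 50.0% in E9.5 ventral, 40.7% in E10.5 dorsal and 28.8% in ventral Pdx1-GFP+ cells, 67.5% in dorsal and 33.3% in ventral Pdx1-GFP-low cells, and 40.7% in Liv2+ and 37.3% in Liv2- cells. At 50 CPM it was 0% in E9.5 dorsal, ventral Pdx1-GFP+, ventral Pdx1-GFP-high, dorsal Pdx1-GFP-low and Liv2+ cells. With 1 set left out it was 0 to 3.85% in ventral Pdx1-GFP+, 0 to 3.45% in ventral Pdx1-GFP-high, 16.2 to 27.3% in dorsal Pdx1-GFP-low and 0 to 7.14% in ventral Pdx1-GFP-low cells.

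With the replicate number as a block, 22 genes were called for the dorsal gates in place of 18, 6 for the Pdx1-GFP-low sets as before, and the other counts of genes were the same apart from the 1 above. Deviations of samples that share a number correlated at r from 0.122 to 0.482 in bulk, where each group has only 2 libraries, and at -0.084 to 0.133 in sets. No label says what a number marks, so the numbers were not taken as pairing. The alternatives for the differences between gates, and the sum without Atp2a2 and Slc8a1, were chosen after seeing the data. No log2 difference of a named gene changed sign, but at 50 CPM the share of cells in dorsal Pdx1-GFP-low (0%) fell below that in ventral Pdx1-GFP-low cells (2.56%). After E10.5 the precision is limited by 2 libraries a group and few reads per gene.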
